A study of Homo sapiens with 6 samples.

Results

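The BCL2 family decides whether a cell under stress lets its mitochondria release the proteins that start caspase-driven death. Here 10 of its genes were followed in HepG2 cells given a hairpin RNA against TCTP. The 10 were chosen by gene symbol from the 26389 genes of the deposited count table, and all 10 were found there and passed the filter on low counts. They are the protective genes MCL1, BCL2, BCL2L1 and BCL2A1 and the 6 death-promoting genes BAX, BAK1, BIK, BCL2L11, PMAIP1 and BBC3. HepG2 is a human hepatocellular carcinoma line. Messenger RNA came from 3 libraries of cells transfected, by a lipid reagent, with a short hairpin RNA plasmid against TCTP (shTCTP) and 3 of cells given a control hairpin plasmid (shCtrl). No selection of transfected cells and no hairpin sequence is described, and 48 h is named as the harvest time for quantitative PCR only. TCTP, encoded by TPT1, is known to bind the MCL1 and BCL-xL proteins, and the comparison asks how the transcripts of this family stood when TPT1 was targeted.

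Protective members such as MCL1 and BCL-xL (the main product of BCL2L1) hold their death-promoting relatives in check on the mitochondrial membrane. BAX and BAK1 encode the effectors that form pores in that membrane. BIK, BIM (BCL2L11), NOXA (PMAIP1) and PUMA (BBC3) belong to the BH3-only proteins, which sense damage and either block the protective members or switch the effectors on. In mouse hepatocytes MCL1 and BCL-xL are the protective members known to be needed for survival. MCL1 and BCL2L1 also have short splice forms that promote death, and BIM has several forms. Gene-level counts do not separate these.

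Promoter sequences from RefSeq (GRCh38.p14; 250 bases before the gene start to 50 after it) were matched for 8 of the 10 members. MCL1 and BIK had no entry, so nothing is said of their promoters. The windows of 3 members are shown because they represent a gene that rose (BCL2A1), a gene with a smaller difference that did not pass the test (PMAIP1) and a gene with an estimate near 0 (BAX). BCL2A1 lies at chr15:79971147-79971446 on the minus strand, PMAIP1 at chr18:59899746-59900045 on the plus strand and BAX at chr19:48954625-48954924 on the plus strand. Capitals mark motif matches on either strand, which are TATAAA in BCL2A1, TGACG (read as CGTCA) in PMAIP1, and CACGTG with an overlapping TGACG in BAX.
BCL2A1: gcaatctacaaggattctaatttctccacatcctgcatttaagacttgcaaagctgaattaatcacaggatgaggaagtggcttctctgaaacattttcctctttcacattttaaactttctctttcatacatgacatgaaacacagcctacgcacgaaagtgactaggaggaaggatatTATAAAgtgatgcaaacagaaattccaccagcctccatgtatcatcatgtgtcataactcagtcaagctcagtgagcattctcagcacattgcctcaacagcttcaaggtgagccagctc
PMAIP1: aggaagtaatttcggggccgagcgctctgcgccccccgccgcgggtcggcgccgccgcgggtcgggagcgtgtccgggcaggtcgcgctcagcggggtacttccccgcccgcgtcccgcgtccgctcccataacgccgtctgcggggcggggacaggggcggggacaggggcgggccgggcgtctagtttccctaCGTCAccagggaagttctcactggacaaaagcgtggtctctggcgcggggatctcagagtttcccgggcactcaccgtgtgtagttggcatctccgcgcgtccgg
BAX: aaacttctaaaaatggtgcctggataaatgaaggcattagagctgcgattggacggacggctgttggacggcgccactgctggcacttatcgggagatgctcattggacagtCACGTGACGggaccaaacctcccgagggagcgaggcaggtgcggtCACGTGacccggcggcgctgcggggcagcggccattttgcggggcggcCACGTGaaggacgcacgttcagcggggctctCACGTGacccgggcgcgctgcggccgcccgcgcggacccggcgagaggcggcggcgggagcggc

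The BCL2A1 window had a GC content of 41% and 2 CpG dinucleotides, the lowest values among the matched members. The other matched windows lay between 48% (BBC3) and 74.7% (BCL2L11), and the median of all 35116 windows was 58.7%. TATAAA occurs in 11.5% of all windows, and among the members it was also found in 1 of the 2 windows listed for BCL2L1. TGACG, the core of the cAMP response element that ATF proteins bind, occurs in 24.6% of all windows. It was present for BCL2, PMAIP1 and BAX and in 1 of the BCL2L1 windows. CACGTG, an E-box, occurs in 7.26% of all windows, 4 times in that of BAX and once in that of BBC3. The AP-1 motif TGANTCA (7.71% of all windows) was found in the BBC3 window among the members. The full element TGACGTCA, which contains TGACG (1.85%), and the NF-kappaB consensus (11.3%) matched none of the available windows, which do not cover MCL1 and BIK. A match is a string of letters, and binding was not measured.

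The shTCTP libraries held 25427614 to 30486409 reads assigned to genes and the shCtrl libraries 29969485 to 30348435. Library 3 of shTCTP was the shallowest and stood apart: its correlation with the others averaged 0.977, against 0.986 to 0.987 for each remaining library. TPT1 had 2032, 1807 and 1559 CPM (reads scaled to library total and TMM factor) in shTCTP libraries and 2575, 2249 and 2290 CPM in shCtrl libraries. All shTCTP values lay below all shCtrl values. The estimated fold was 0.759 (95% confidence interval 0.59 to 0.977, log2 fold change -0.40), with an unadjusted p of 0.0339 and an adjusted p of 0.396 over the 14197 tested genes (edgeR, threshold 0.05), so the targeted gene itself did not pass. All 9 hepatocyte markers checked, including ALB and AFP, stood above 1 FPKM (reads scaled for gene length and library total) in every library. Their summed level was 5390 to 6320 FPKM in shTCTP and 6580 to 7080 FPKM in shCtrl libraries, and the part of this in the results was not tested. Of 5 immune markers LYZ was abundant at 422 to 547 FPKM in shTCTP and 476 to 591 FPKM in shCtrl libraries, while CD3E was at most 0.02 FPKM and PTPRC was listed at 0 or not at all. CD68 stood at 0.74 to 1.41 FPKM in shTCTP and 1.45 to 1.69 FPKM in shCtrl libraries. Endothelial markers summed to at most 0.08 FPKM in shTCTP and 0.09 FPKM in shCtrl libraries. Fibroblast markers summed to 1.89 to 2.86 FPKM in shTCTP and 1.84 to 2.23 FPKM in shCtrl libraries, nearly all from PDGFRB, with COL1A2 and DCN at 0 or not listed. Separate cultures for the replicates are not described, and p-values therefore speak only to the spread among these samples, which may be technical. Fewer cells carrying a transcript and less of it per cell cannot be told apart in bulk RNA.

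Per length, BCL2L1 and BAX stood highest among the 10 members in HepG2. BCL2L1 averaged 226 ± 12.6 FPKM in shTCTP and 191 ± 19.6 FPKM in shCtrl libraries (SD, n = 3 each), ranking 302 in shTCTP and 344 in shCtrl libraries among 14197 tested genes. BAX followed at 165 ± 14.7 FPKM in shTCTP and 155 ± 9.35 FPKM in shCtrl libraries (SD, n = 3 each). The ranges of the pair over the 6 libraries overlapped, but within every library BCL2L1 was above BAX. BAK1, at 41.5 ± 1.17 FPKM in shTCTP and 34.1 ± 2.87 FPKM in shCtrl libraries (SD, n = 3 each), stood clear of its neighbours on both sides. MCL1 followed at 15.2 ± 3.14 FPKM in shTCTP and 12.8 ± 2.08 FPKM in shCtrl libraries (SD, n = 3 each). Its range overlapped that of BBC3, at 11.2 ± 2.95 FPKM in shTCTP and 8.65 ± 0.641 FPKM in shCtrl libraries. Within every library MCL1 was above BBC3. BIK ranked 6 in both groups. BCL2L11, PMAIP1 and BCL2A1 lay between 0.32 and 1.94 FPKM in all libraries, with BCL2A1 at rank 7 in shTCTP and rank 9 in shCtrl libraries. BCL2, the founding member, was hardly present at 0.04 to 0.16 FPKM.

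**Figure D1:**
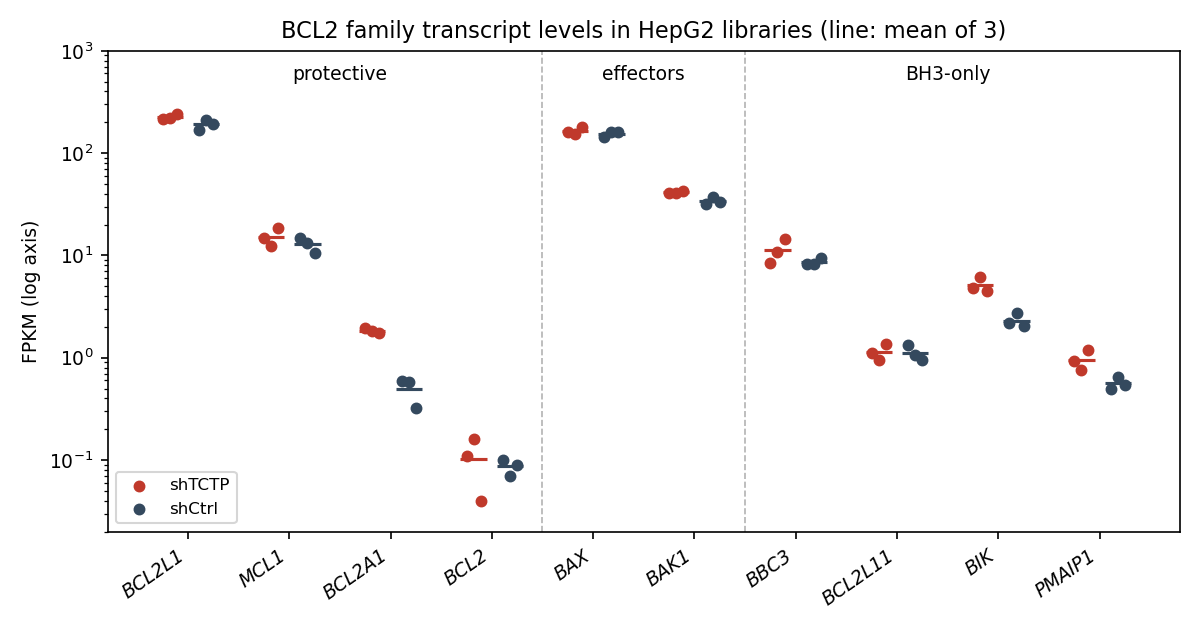
FPKM on a log axis for the 10 members, grouped by role, with 1 point per library and a line at the mean of 3, shTCTP left of shCtrl. BCL2L1 and BAX lie at 144 FPKM or more in every library, and BCL2A1 and BIK are the members whose groups are farthest apart on this axis.

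Among the 4 protective members BCL2L1 made up 92.2% to 93.9% of the summed FPKM in shTCTP and 91.7% to 94.7% in shCtrl libraries. MCL1 made up 5.25% to 7.13% in shTCTP and 5.14% to 7.91% in shCtrl libraries. BAX and BAK1 together made up 91.2% to 92.9% of the sum of the 6 death-promoting members in shTCTP libraries. In shCtrl libraries it was 93.4% to 94.0%. These sums leave out the rest of the family, of which some genes had levels like those of BAK1 or MCL1. BAD averaged 40.4 FPKM in shTCTP and 37.4 FPKM in shCtrl libraries, and BOK 27.5 and 33.2 FPKM. BID averaged 21.3 FPKM in shTCTP and 21.6 FPKM in shCtrl libraries, and BCL2L2 14.2 and 13.1 FPKM.

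The protective gene BCL2A1 and the death-promoting gene BIK were higher in shTCTP than in shCtrl libraries, and the remaining 8 members, MCL1 among them, did not pass the test. BCL2A1 stood 3.45-fold (95% confidence interval 2.16 to 5.5) and BIK 2.08-fold (1.48 to 2.93) above shCtrl. MCL1 had an estimate of 1.10-fold (0.896 to 1.35). Of the 10 members 2 rose and 0 fell at an adjusted p under 0.05 (edgeR), where 1.26% of all 14197 tested genes rose, 0.148% fell and 1.41% did either. DESeq2 and limma voom each gave the same counts. At an unadjusted p under 0.05 there were 3 members, all higher, where 11.1% of all tested genes passed that limit in either direction. Positive estimates were found for 8 of 10 members and for 49.6% of all tested genes. The median log2 fold change was 0.17 for the members and -0.0023 for all tested genes.

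BCL2A1 (ENSG00000140379.7; GRCh38 chr15:79960889-79971446, minus strand) encodes BFL1, a small protective member that is best known from blood cells and is an NF-kappaB target. It had 67, 62 and 50 reads in shTCTP libraries and 20, 20 and 11 reads in shCtrl libraries. This corresponds to 2.3, 2.09 and 1.69 CPM in shTCTP and 0.656, 0.694 and 0.395 CPM in shCtrl libraries. Every shTCTP library therefore lay above every shCtrl library, from a low level in both groups. The log2 fold change was 1.79 (SE 0.32, adjusted p = 0.00701, edgeR), which ranked 73 by p among the tested genes. Without shCtrl library 1 it missed the threshold with an adjusted p of 0.0581 (edgeR) and a log2 fold change of 1.88. Without shTCTP library 3, the one that stood apart, it was 1.91 with an adjusted p of 1.41e-05 (edgeR).

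BIK (ENSG00000100290.2; GRCh38 chr22:43110748-43129712, plus strand) encodes a BH3-only protein that resides largely at the endoplasmic reticulum. Its reads numbered 146, 181 and 113 in shTCTP libraries and 65, 82 and 61 in shCtrl libraries. On the CPM scale these were 5, 6.09 and 3.82 in shTCTP and 2.13, 2.84 and 2.19 in shCtrl libraries. The lowest shTCTP value, from library 3, was still above the highest shCtrl value. The log2 fold change was 1.06 (SE 0.23, adjusted p = 0.0329, edgeR), and it passed with all 6 libraries but in only 1 of the 6 fits with a library left out, the fit without shTCTP library 3 (1.22, adjusted p = 7.31e-05, edgeR). In the other 5 fits the estimate lay between 0.87 and 1.20 and the adjusted p reached 0.178 (edgeR).

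**Figure D2:**
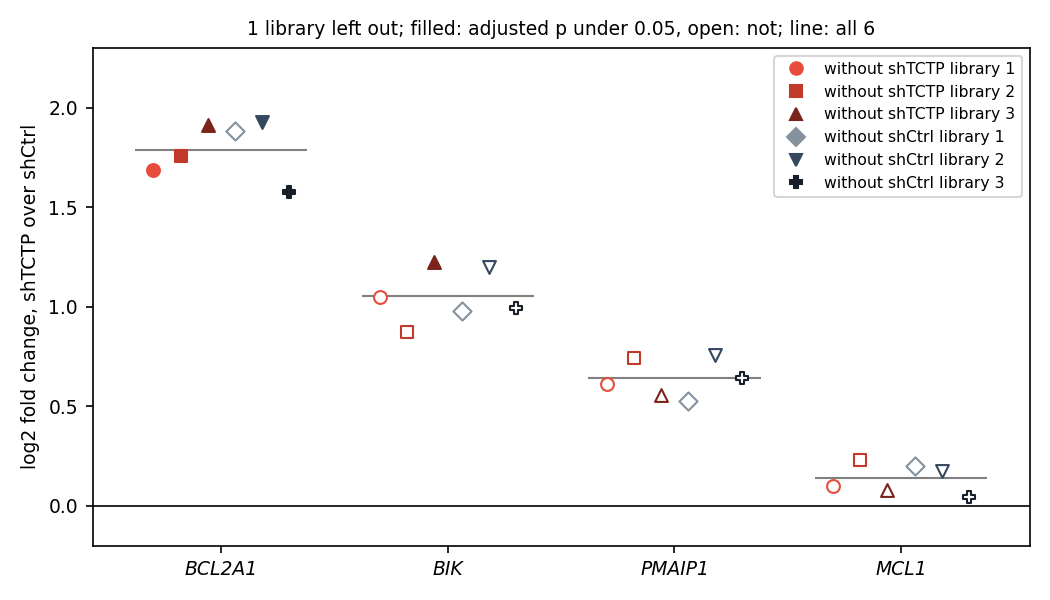
Log2 fold changes of BCL2A1, BIK, PMAIP1 and MCL1 with 1 library left out, filled where the adjusted p (edgeR) was under 0.05, with a line at the value from all 6 libraries. BCL2A1 is filled in 5 of 6 fits and BIK in 1 of 6, while PMAIP1 and MCL1 are open throughout, and all estimates are above 0.

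The third member whose groups did not overlap was PMAIP1 (GRCh38 chr18:59899948-59904306, plus strand), whose product NOXA binds MCL1 with preference and promotes its degradation. It had 61, 50 and 67 reads in shTCTP libraries and 33, 43 and 36 reads in shCtrl libraries. Scaled to CPM the values were 2.09, 1.68 and 2.26 in shTCTP and 1.08, 1.49 and 1.29 in shCtrl libraries. The estimated fold was 1.56 (95% confidence interval 1.05 to 2.32; log2 0.64, SE 0.27) and did not pass (adjusted p = 0.377, edgeR). Together with BCL2A1 and BIK this made 3 of 10 members with all shTCTP libraries above all shCtrl libraries on the CPM scale, which holds for 9.83% of all tested genes. No member had all shTCTP libraries below, as 7.3% of all tested genes did, and 17.1% of all tested genes separated in either direction.

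MCL1 (ENSG00000143384.12; GRCh38 chr1:150574551-150579738, minus strand), a protein of very short half-life in the cell, had 1907, 1582 and 2017 reads in shTCTP libraries and 1869, 1708 and 1363 reads in shCtrl libraries. The corresponding levels were 65.3, 53.2 and 68.1 CPM in shTCTP and 61.3, 59.2 and 48.9 CPM in shCtrl libraries. The groups interleave, with the second shTCTP library below 2 of the shCtrl libraries. The log2 fold change of 0.14 (SE 0.14) did not pass (adjusted p = 0.781, edgeR). It ranged from 0.04 without shCtrl library 3 to 0.23 without shTCTP library 2. MCL1 protein was not analysed here.

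BCL2L1 (ENSG00000171552.12; GRCh38 chr20:31664452-31723989, minus strand) had 674, 666 and 616 CPM in shTCTP libraries and 498, 651 and 631 CPM in shCtrl libraries. The shTCTP library 3 was below 2 shCtrl libraries, and shCtrl library 1 was the lowest of all. Its log2 fold change was 0.14 (SE 0.15, adjusted p = 0.807, edgeR), and 0.024 without shCtrl library 1. In the deposited FPKM values the groups did separate, at 216.78, 221.86 and 240.76 FPKM in shTCTP and 169.71, 208.46 and 194.27 FPKM in shCtrl libraries. FPKM is scaled to total reads, whereas the TMM factor was 1.166 for shTCTP library 3 and 0.919 to 1.018 for the other libraries. BAK1 showed the same difference between scales. It separated at 40.6 to 42.8 FPKM in shTCTP and 31.6 to 37.2 FPKM in shCtrl libraries. On the CPM scale it overlapped, at 84.8 to 98.7 CPM in shTCTP and 71.6 to 89.8 CPM in shCtrl libraries. On FPKM 5 of 10 members lay higher without overlap, against 12.8% of all tested genes, and 0 lay lower, against 3.41%. BCL2 was counted with 27, 38 and 9 reads in shTCTP and 25, 18 and 22 reads in shCtrl libraries. Its confidence interval for the fold, 0.593 to 2.12, leaves a wide range at this depth.

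The effectors and the remaining BH3-only genes did not pass. BAX had 246, 227 and 229 CPM in shTCTP libraries and 209, 248 and 255 CPM in shCtrl libraries, with an estimated fold of 0.987 (95% confidence interval 0.812 to 1.20). The sign of the BAX estimate turned under other settings, as did those of BCL2L11 and BCL2. BAK1 had a log2 fold change of 0.18 (SE 0.13, adjusted p = 0.679, edgeR). BBC3 had 19.3, 23.9 and 26.9 CPM in shTCTP libraries and 17.8, 18.9 and 22.3 CPM in shCtrl libraries, and its log2 fold change of 0.25 (SE 0.16) had an adjusted p of 0.605 (edgeR). BCL2L11 had 7.37, 6.15 and 7.46 CPM in shTCTP libraries and 8.33, 7.08 and 6.57 CPM in shCtrl libraries. Its groups overlapped, with an estimated fold of 0.954 (95% confidence interval 0.734 to 1.24). BCL2L11 overlaps MIR4435-2HG on the opposite strand, which had 4068 to 9554 reads per library. Whether strand was used in counting is not given in the sources used here, so reads of that pair may be shared. The other annotated neighbours and copies of members that the table holds had at most 16 reads (ABALON, opposite BCL2L1).

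**Figure D3:**
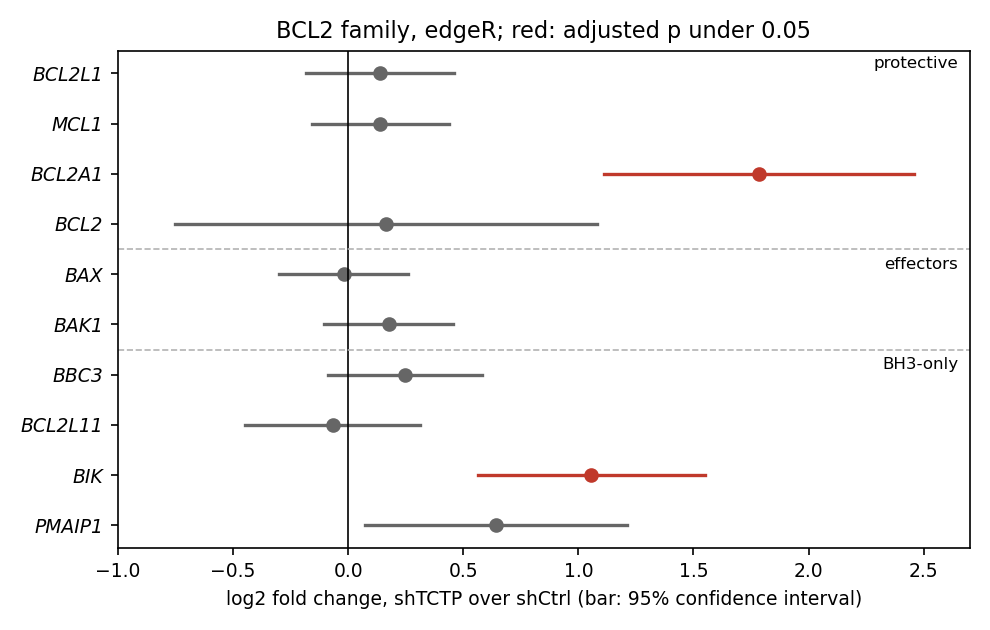
Log2 fold changes (shTCTP over shCtrl) of the 10 members by role with 95% confidence intervals from the edgeR fit, red where the adjusted p was under 0.05. Each of the protective and BH3-only classes holds 1 red member, and the intervals of MCL1, BCL2L1, BCL2, BAX, BAK1, BBC3 and BCL2L11 include 0.

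Set against each other, the protective and death-promoting classes each held 1 member that rose. Of the 4 protective members 1 passed and all 4 had positive estimates, with a median log2 fold change of 0.15. Of the 6 death-promoting members 1 passed and 4 had positive estimates, with a median of 0.21. Among all tested genes 1.26% rose and 49.6% had positive estimates, with a median of -0.0023 (edgeR). The 4 BH3-only genes had a median of 0.45, from -0.07 for BCL2L11 to 1.06 for BIK. Their summed level was 15.3, 18.7 and 21.4 FPKM in shTCTP libraries and 12.3, 12.7 and 12.9 FPKM in shCtrl libraries, with the highest value in shTCTP library 3. FPKM leaves out the TMM factor, which was 1.166 for that library. The largest part of each sum was BBC3, which did not pass and whose groups overlapped. It stood at 8.46, 10.9 and 14.34 FPKM in shTCTP and 8.3, 8.26 and 9.39 FPKM in shCtrl libraries. The ratio of the protective to the death-promoting sum covers the 10 members only. It was 1.08, 1.11 and 1.06 in shTCTP libraries and 0.985, 1.05 and 0.998 in shCtrl libraries. On the log2 scale it averaged 0.12 ± 0.03 in shTCTP and 0.02 ± 0.05 in shCtrl libraries (SD, n = 3 each), a difference of 0.10 that is given without a test. Such ratios within a library do not depend on its depth scaling.

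Of the BH3-only members, PMAIP1 and BCL2L11 were set against MCL1, and the direction differed between them. Ratios of MCL1 to BIK and BBC3 were not calculated. The ratio of MCL1 to PMAIP1 in FPKM was 16.0, 16.3 and 15.5 in shTCTP libraries and 29.3, 20.4 and 19.5 in shCtrl libraries. The shTCTP values lay close together and below all shCtrl values, of which library 1 was the highest. The ratio of MCL1 to BCL2L11 was 13.2, 12.9 and 13.6 in shTCTP libraries and 11.0, 12.5 and 11.1 in shCtrl libraries, so here the shTCTP libraries were all higher. No test was made of these ratios, and PMAIP1 rests on 33 to 67 reads per library. MCL1, PMAIP1 and BCL2L11 did not pass as single genes, and how many other gene pairs separate in this way was not counted.

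**Figure D4:**
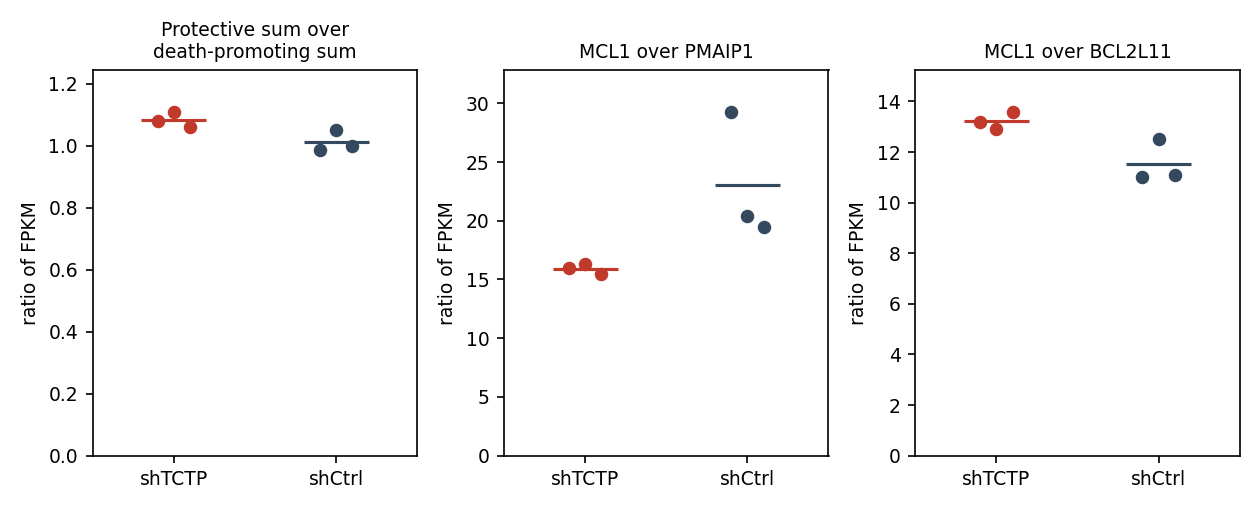
Ratios of FPKM within each library, from 0 upward, for the protective over the death-promoting sum, MCL1 over PMAIP1 and MCL1 over BCL2L11, with 1 point per library and a line at the mean. The shTCTP points lie between 15.5 and 16.3 for MCL1 over PMAIP1, below the shCtrl points at 19.5 to 29.3.

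Around the family, some of the transcription factors listed as upstream rose, while the other lists held no gene that passed (edgeR). Whether these factors act on the members in these cells was not tested. Of 19 tested factors 5 rose and 0 fell (edgeR), and DESeq2 gave 6 and 0, each at an adjusted p under 0.05. At an unadjusted p under 0.05, 7 were higher and 0 lower with edgeR and likewise with DESeq2. Over all tested genes 1.26% rose, 0.148% fell, and 11.1% had an unadjusted p under 0.05 in either direction (edgeR). The 5 were the stress-induced factor ATF3, the AP-1 subunits FOS and JUN, and the NF-kappaB subunits RELB and NFKB2. FOS averaged 8.03 ± 0.696 CPM in shTCTP and 2.26 ± 0.423 CPM in shCtrl libraries, and JUN 111 ± 3.62 CPM in shTCTP and 53.6 ± 2.24 CPM in shCtrl libraries (SD, n = 3 each). ATF3 averaged 110 ± 7.58 CPM in shTCTP and 30.6 ± 0.616 CPM in shCtrl libraries (SD, n = 3 each). RELB had 24.7, 28.8 and 19.5 CPM in shTCTP libraries and 13.8, 12.5 and 15.0 CPM in shCtrl libraries, a log2 fold change of 0.82. RELB missed the threshold without shTCTP library 2 or shCtrl library 1 or 2 (adjusted p up to 0.133, edgeR). NFKB2, at 0.60, missed it without shTCTP library 2 or any 1 shCtrl library (up to 0.159, edgeR). Several factors here were chosen with their behaviour in these libraries known.

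None of the other 6 lists held a gene that passed with edgeR, DESeq2 or limma voom. Among 11 tested further BCL2 family genes, 0 were higher and 3 lower at an unadjusted p under 0.05 (edgeR), a limit that 11.1% of all tested genes passed in either direction, and the median log2 fold change was 0.014. With limma on log2 FPKM, at either pseudocount, 1 was higher and 1 lower at that limit. BNIP3 and BNIP3L, mitophagy receptors induced by hypoxia, had the smallest p in that list with edgeR. BNIP3 averaged 130 ± 21.8 CPM in shTCTP and 171 ± 8.24 CPM in shCtrl libraries (SD, n = 3 each; adjusted p = 0.255, edgeR). BNIP3L averaged 11.9 ± 0.71 CPM in shTCTP and 15.9 ± 2.58 CPM in shCtrl libraries (SD, n = 3 each; adjusted p = 0.31, edgeR). The remaining lower gene was BOK, with a log2 fold change of -0.37 and overlapping groups (adjusted p = 0.356, edgeR). Of 8 death receptor genes 2 had an unadjusted p under 0.05 (edgeR), both higher, beside the same 11.1% of all tested genes. They encode the TRAIL receptors, with log2 fold changes of 0.38 for TNFRSF10A and 0.31 for TNFRSF10B (adjusted p = 0.373 and 0.375, edgeR).

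The caspases and apoptosome genes (13 tested, median 0.015), the caspase inhibitors and their antagonists (7 tested, median -0.0014), the genes of MCL1 turnover and synthesis (11 tested, median 0.09) and the mitochondrial partners (10 tested, median -0.08) had no gene at an unadjusted p under 0.05 (edgeR). DESeq2 and limma voom also gave 0 in these lists at that limit. ENDOG, a mitochondrial nuclease, had a log2 fold change of -0.28. DIABLO, which relieves caspase inhibition, stood at 0.18, and XIAP, the inhibitor it antagonises, at -0.20. CDC20 and FBXW7, which direct MCL1 to ubiquitination, stood at 0.23 and 0.33. The outer membrane proteins MOAP1 and MTCH2, partners of BAX and BID, stood at -0.21 and -0.14.

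**Figure D5:**
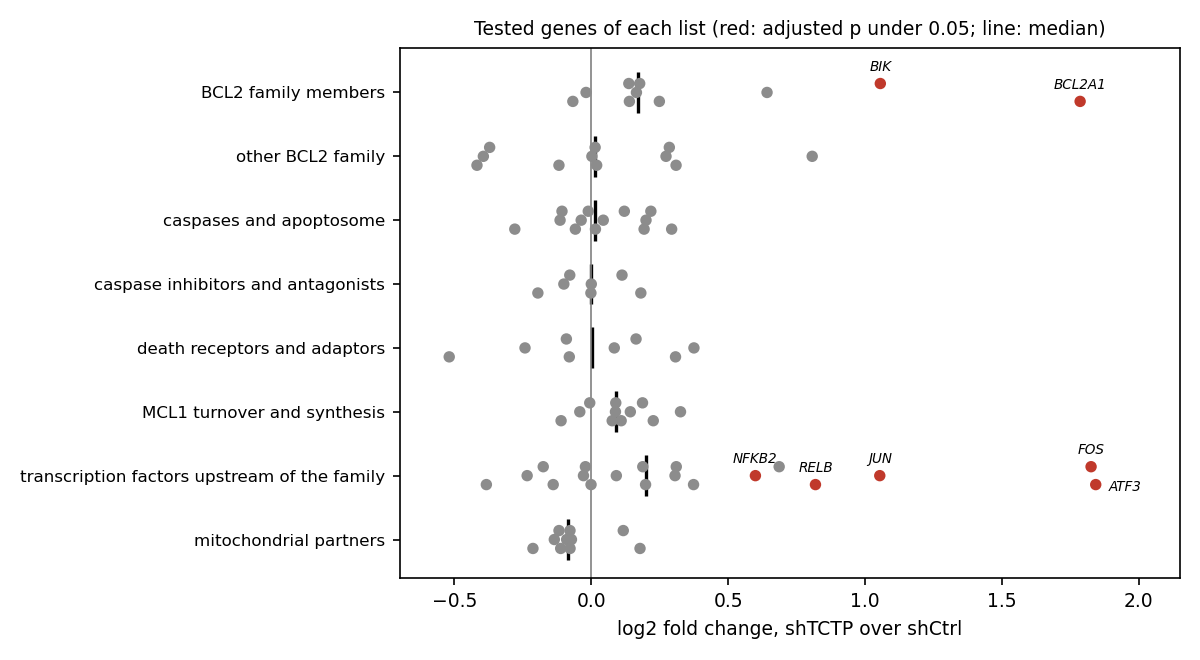
Log2 fold changes (shTCTP over shCtrl, edgeR) of every tested gene of the BCL2 family members and of 7 further lists, with a line at each median and red for an adjusted p under 0.05. Red points are BCL2A1 and BIK among the members and 5 genes among the transcription factors, and the medians run from -0.08 to 0.20.

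Profiles over the 6 libraries were compared by the root mean square difference of centred log2 CPM, among genes of at least 10 CPM on average. Nearest to BCL2A1 were ANKRD1 (0.19), ATF3 (0.25) and MAP3K14 (0.26), against a median of 0.92 over 7038 genes. ANKRD1 encodes an ankyrin repeat protein, and MAP3K14 the kinase NIK of the alternative NF-kappaB pathway. Nearest to BIK were GADD45B (0.10), CSRNP1 (0.13) and PLK3 (0.17), against a median of 0.59. GADD45B and PLK3 are stress-induced genes. Nearest to MCL1 were OSBPL10 (0.046), ZNF24 (0.047) and TAX1BP1 (0.049), against a median of 0.24 over 7037 genes. The neighbours of BCL2A1 and BIK had log2 fold changes of 0.96 (CSRNP1) to 1.84 (ATF3), and those of MCL1 0.078 (OSBPL10) to 0.16 (TAX1BP1). Because neighbours were chosen on these same 6 libraries, fold changes near that of the member follow from the choice.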

How the data were processed

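The authors deposited read counts per gene (26389 genes) and FPKM values per gene (26184 genes) for 3 shTCTP and 3 shCtrl libraries of HepG2 cells. Per the labels' protocols, libraries were directional and made from poly(A) RNA, with paired reads of 150 bases. The submitters' processing notes name GRCh38 and the tools TopHat2, bcl2fastq and edgeR. For the annotation, the counting step and its use of strand, details were not given in the sources used here. Identifier versions differ for some members from those of GENCODE 29, the source of the GRCh38 gene coordinates.

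Genes kept by filterByExpr were scaled by TMM and tested on their counts with the quasi-likelihood method of edgeR 4.0.16 in R 4.3.3, with group as the only term and robust dispersion. Benjamini-Hochberg adjustment ran over all 14197 tested genes, and the procedure was tested on simulated data. Levels of different genes were compared as FPKM. No pair of libraries within a group was a duplicate (chi-square divided by its degrees of freedom 13.9 to 85.7). The members and lists were chosen with earlier results of these data known. Named were all members, TPT1, up to 4 genes past the threshold from each other list (or the 2 with the smallest p), and the 3 nearest profiles of MCL1 and of each member that passed. NFKB2, BAD, BOK, BID and BCL2L2 were named after their values were seen. A few genes of the lists are not reported here by name. Of 87 genes in the 7 other lists, 85 were in the count table and 79 were tested.

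Alternatives were RLE and upper quartile scaling, the replicate block, a minimum of 1 CPM in 3 libraries in place of the filter, no filter, DESeq2 1.42.0, limma 3.58.1 (voom, and log2 FPKM with pseudocounts of 1 and 0.1), a loess correction for gene length (span 0.3) and each library left out. Promoter motifs were searched on both strands. The TATAAA motif was added after the sequences had been read. Figures were drawn with matplotlib 3.10.9.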

Additional observations from a re-analysis of the deposited data

How the results depend on the processing

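BCL2A1 and BIK passed under all 10 alternatives that used every library (edgeR, DESeq2 and limma adjusted p up to 0.0123 and 0.0485). With 1 library left out, 0 to 2 members rose, with 1 for 4 of the libraries, 2 without shTCTP library 3 and 0 without shCtrl library 1. These fits have fewer samples. The count of other listed genes that rose was 5, and 3 to 6 with 1 library left out, 3 without shTCTP library 2 or shCtrl library 1 or 2. BAX was 0.090 with log2 FPKM at either pseudocount and 0.040 with the length correction, and -0.11 to 0.033 with 1 library left out. BCL2L11 was 0.022 and 0.038 with log2 FPKM at pseudocounts of 1 and 0.1, and -0.14 to 0.035 with 1 library left out. BCL2, which the minimum of 1 CPM removes, was -0.051 with limma voom and -0.28 to 0.57 with 1 library left out. The cause of these turns was not tested. TPT1 stayed negative and did not pass in any setting, at -0.50 to -0.29 with 1 library left out. The class ratio difference was 0.15 by the mean of log2(FPKM + 0.1), which weights rare members like abundant ones, and 0.08 to 0.13 with 1 library left out. On log2(FPKM + 1) the estimate of BCL2A1 was 0.92, since the pseudocount shrinks low genes. The members' median was 0.12 to 0.21 with 1 library left out, where that of all tested genes was -0.011 to 0.0145. On log2 FPKM with pseudocounts of 1 and 0.1 the members' median was 0.26 and 0.27. There the median of all tested genes also moved up, to 0.057 and 0.091 from -0.0023 in the main fit.

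Same-numbered libraries did not deviate together (correlations of -0.232, 0.0015 and -0.2), while pairs with unlike numbers ran from -0.181 to 0.295. Deviations within a group of 3 sum to 0, so these correlations depend on one another and cannot settle whether libraries were paired. With the replicate block 130 genes passed in place of 200, BCL2A1 at 1.81 and BIK at 1.05 still among them, TPT1 was -0.40, and NFKB2 did not pass (edgeR adjusted p = 0.102). Of the 8 death receptor genes 0 had an unadjusted p under 0.05 with the block (edgeR). DESeq2 called 314 genes, and the fit without a filter 317. With 1 library left out the count was 343 without shTCTP library 3, 177 without shTCTP library 1, and 79 to 101 without any of the others.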
